A study of Mus musculus with 6 samples.

Results

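Purkinje cells are the output neurons of the cerebellar cortex, and 9 genes that mark their identity were followed here: Pcp2, Car8, Ppp1r17, Rora, Foxp2, Lhx1, Lhx5, Gng13 and Slc1a6. The members were all probe sets that the platform annotation assigns to 1 of these symbols and to no other gene, which gave 28 of the 45037 probe sets tested, and 9 of 18193 genes. Rora had 9 probe sets, Foxp2 had 6, Pcp2 and Car8 had 3 each, Lhx1 and Gng13 had 2 each, and Ppp1r17, Lhx5 and Slc1a6 had 1 each. Cerebellum of wild-type mice (n = 3) was compared with cerebellum of transgenic mice of the genotype daDREAM (n = 3), with 1 Affymetrix mouse genome array per replicate. DREAM, which Kcnip3 encodes, represses genes until calcium binds it, and daDREAM is a mutant form that represses irrespective of calcium. The sources used here do not give strain, age, sex, the promoter that drives the transgene or any pooling of animals. The series text calls the replicates independent without saying how animals map to arrays, so p-values measure the spread between these arrays. The comparison asks whether Purkinje cell transcripts differ in the presence of daDREAM.

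Each Purkinje cell gathers input from a large number of granule cell fibres and from a climbing fibre, and sends inhibitory output to the cerebellar nuclei. Its identity is set up by LIM-homeodomain factors such as Lhx1 and Lhx5 and by Foxp2, and its maturation and maintenance need the nuclear receptor ROR-alpha, encoded by Rora. Mature cells carry abundant transcripts for calcium and G protein signalling, among them Pcp2, Car8, Ppp1r17 and Gng13, and for the glutamate transporter Slc1a6. Expression of Lhx1, Lhx5, Foxp2 and Rora is not limited to Purkinje cells. These are whole-tissue samples, so fewer Purkinje cells and less RNA per cell cannot be told apart.

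Because DREAM binds DNA at downstream regulatory elements with the core GTCA, and ROR-alpha binds sites that hold AGGTCA, the 250 bases before the annotated start of the member genes were searched for both motifs on both strands. RefSeq promoter windows of build GRCm38.p6 were matched for 5 of the 9 genes, and 3 are shown: Pcp2, the bright marker with the steadiest values, Lhx1, whose brightest probe set varied most between arrays, and Rora, the gene with the most probe sets. Capitals mark GTCA or its reverse complement TGAC, and the full AGGTCA where present. The sequences run 5' to 3' on the gene's strand and end at the base before the start, taking the most upstream start of Pcp2.
Pcp2, chr8:3625548-3625797, minus strand: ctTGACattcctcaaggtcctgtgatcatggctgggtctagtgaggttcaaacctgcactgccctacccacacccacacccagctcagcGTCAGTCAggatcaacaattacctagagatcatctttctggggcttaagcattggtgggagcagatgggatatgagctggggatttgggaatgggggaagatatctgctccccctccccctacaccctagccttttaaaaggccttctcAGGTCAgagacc
Lhx1, chr11:84525535-84525784, minus strand: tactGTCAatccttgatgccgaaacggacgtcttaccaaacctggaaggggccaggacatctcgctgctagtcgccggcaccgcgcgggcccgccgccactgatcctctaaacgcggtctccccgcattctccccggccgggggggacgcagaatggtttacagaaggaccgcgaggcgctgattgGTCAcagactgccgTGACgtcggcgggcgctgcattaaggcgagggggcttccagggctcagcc
Rora, chr9:68653536-68653785, plus strand: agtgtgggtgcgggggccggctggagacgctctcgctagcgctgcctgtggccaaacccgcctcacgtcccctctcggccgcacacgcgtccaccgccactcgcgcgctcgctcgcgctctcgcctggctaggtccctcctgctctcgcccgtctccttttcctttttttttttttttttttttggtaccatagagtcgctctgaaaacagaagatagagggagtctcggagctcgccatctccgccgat
The Pcp2 window held 4 GTCA matches, of which 1 lies inside an AGGTCA near the start. Lhx1 held 3 GTCA matches and no AGGTCA, and Rora held neither motif. The most upstream window of Gng13 held 4 GTCA matches and that of Slc1a6 held 1. Of all 32851 windows of this length, 80.2% held GTCA and 14.0% held AGGTCA, so a GTCA match is common. These matches describe letters and do not show binding.

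None of the Purkinje cell genes passed the test between genotypes. Of the 28 probe sets, 0 had a limma adjusted p under 0.05 (background over all probe sets 0%), and 0 had an unadjusted p under 0.05, against a background of 1.81%. By direction that background was 1.11% higher and 0.706% lower in daDREAM. The genotypes overlapped at each of the 28 probe sets, whereas they did not overlap at 6.01% of all probe sets. Of the members 14 probe sets were higher and 14 lower in daDREAM, with a median difference of -0.00 log2 units beside 0.01 over all probe sets. A difference of 1 log2 unit is a 2-fold change. The difference was smaller than the larger of the 2 group SDs at 23 of the 28 probe sets. The 95% interval lay within 1 log2 unit on either side of 0 at 26 of them, and the exceptions were Car8 1424958_at and 1457904_at.

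**Figure D1:**
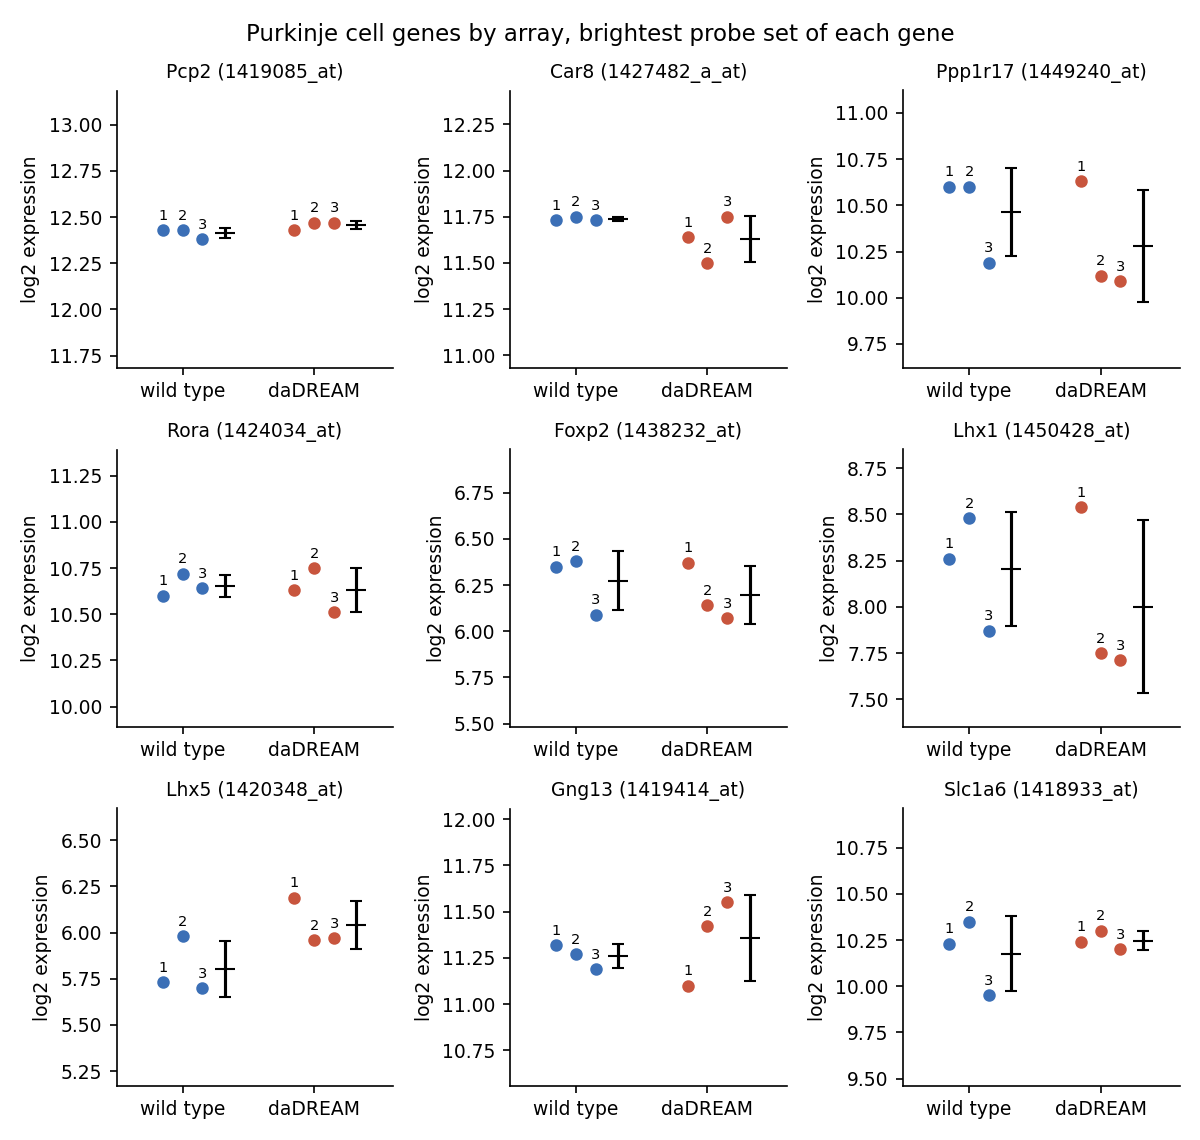
Log2 expression (vertical axes, each spanning 1.5 log2 units) of the brightest probe set of each of the 9 genes, by genotype. Points are arrays with the replicate number above, and bars are mean ± SD (n = 3). Wild-type and daDREAM arrays overlap in each panel, and Ppp1r17 and Lhx1 show the widest spread within a genotype.

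Pcp2 encodes a modulator of G protein signalling that is largely confined to Purkinje cells and to bipolar cells of the retina. Its brightest probe set, 1419085_at, read 12.43, 12.43 and 12.38 in wild-type replicates 1 to 3 and 12.43, 12.47 and 12.47 in daDREAM replicates 1 to 3. The values were nearly level on the 6 arrays, and daDREAM replicate 1 tied with both higher wild-type arrays. The difference was 0.04 log2 units, or 1.03-fold with a 95% interval from 0.869 to 1.22 (limma adjusted p = 0.998). Its range over the arrays was 0.09, and 99.6% of all probe sets had a wider one. Of the 94 brightest probe sets, those averaging 12 or more, 88 had a wider one. The median range of these 94 was 0.22, beside 0.5 over all probe sets. Whether signal near the top of the scale narrows differences was not tested. The other Pcp2 probe sets, 1419084_a_at and 1424944_at, differed by 0.13 and 0.05, so the 3 shared a sign. These 2 dimmer probe sets ranged over 0.42 and 0.45.

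Gng13 encodes a gamma subunit of heterotrimeric G proteins, found in Purkinje cells as well as in taste and olfactory cells. Probe set 1419414_at read 11.32, 11.27 and 11.19 in wild type and 11.10, 11.42 and 11.55 in daDREAM. daDREAM replicate 1 was the lowest of the 6 arrays and daDREAM replicates 2 and 3 were the highest, so the wild-type arrays lay between them. The difference was 0.10 (95% interval -0.23 to 0.43, limma adjusted p = 0.998). Without daDREAM replicate 1 it was 0.225 with no overlap, as at 32.7% of all probe sets in that fit (limma adjusted p = 0.384). Adjusting for the hybridization controls, probe sets for RNA spiked in before hybridization, turned it to -0.16 (95% interval -0.57 to 0.24, limma adjusted p = 0.606). Their level largely followed genotype, so differences adjusted for them, here and below, cannot be cleanly separated from it. In that fit 23.2% of all probe sets had an unadjusted p under 0.05. The dimmer probe set 1447282_at differed by 0.14.

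Slc1a6 encodes EAAT4, the glutamate transporter of Purkinje cell dendrites and spines. It read 10.23, 10.35 and 9.95 in wild type and 10.24, 10.30 and 10.20 in daDREAM. Wild-type replicate 3 stood below the other 5 arrays, and those 5 lay within the same narrow band. The difference was 0.07, or 1.05-fold with an interval from 0.845 to 1.30 (limma adjusted p = 0.998). Without wild-type replicate 3 it was -0.04.

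Ppp1r17, also known as G-substrate, encodes a substrate of cGMP-dependent protein kinase that inhibits protein phosphatases. It read 10.60, 10.60 and 10.19 in wild type and 10.63, 10.12 and 10.09 in daDREAM. Wild-type replicates 1 and 2 and daDREAM replicate 1 were high, and the other 3 arrays were low, so each genotype held both levels. The means were 10.46 ± 0.24 and 10.28 ± 0.30 (SD, n = 3), which differ by -0.18 (95% interval -0.62 to 0.25, limma adjusted p = 0.998). Without daDREAM replicate 1 the difference was -0.36 with no overlap, as at 32.7% of all probe sets in that fit (limma adjusted p = 0.308). Adjusting for the hybridization controls gave 0.37, of opposite sign (limma adjusted p = 0.210).

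Lhx1 encodes a LIM-homeodomain transcription factor of Purkinje cell differentiation. Probe set 1450428_at read 8.26, 8.48 and 7.87 in wild type and 8.54, 7.75 and 7.71 in daDREAM. The high arrays were again wild-type replicates 1 and 2 and daDREAM replicate 1. Its range of 0.83 was the widest among the brightest probe sets of the 9 genes, and the difference of -0.20 (95% interval -0.78 to 0.37, limma adjusted p = 0.998) was smaller than the SD of either genotype. The difference was -0.47 without daDREAM replicate 1 (limma adjusted p = 0.265). Adjusting for the hybridization controls gave 0.59 (limma adjusted p = 0.124), and adjusting for the 3' minus 5' difference of control transcripts gave 0.06. The other Lhx1 probe set, 1421951_at, read between 7.18 and 7.47 and differed by -0.07. Both carry the same source accession in the annotation, yet 1 varied by 0.83 and the other by 0.29 over the same arrays.

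Lhx5 encodes a LIM-homeodomain factor closely related to Lhx1, and the pair acts together in Purkinje cell differentiation. It read 5.73, 5.98 and 5.70 in wild type and 6.19, 5.96 and 5.97 in daDREAM. Wild-type replicate 2 lay just above daDREAM replicates 2 and 3, and the other wild-type arrays lay below the daDREAM arrays. The difference of 0.24, or 1.18-fold with an interval from 0.953 to 1.46, had the smallest p of the 9 brightest probe sets (unadjusted p = 0.113, limma adjusted p = 0.998). It was larger than the SD of either genotype, 0.15 and 0.13. The difference stayed positive in each setting tried, from 0.16 to 0.325 when 1 array was left out. Adjusting for the hybridization controls gave 0.46 (limma adjusted p = 0.159). Lhx1 and Lhx5 thus had opposite signs, and neither passed.

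Foxp2 encodes a forkhead transcription factor that Purkinje cells express through development and into adulthood. Its brightest probe set, 1438232_at, read 6.35, 6.38 and 6.09 in wild type and 6.37, 6.14 and 6.07 in daDREAM. The same arrays were high as for Ppp1r17, with wild-type replicates 1 and 2 and daDREAM replicate 1 above the rest. The difference was -0.08 (95% interval -0.40 to 0.24, limma adjusted p = 0.998). Adjusting for the hybridization controls gave 0.24 (limma adjusted p = 0.363). The other 5 Foxp2 probe sets had means from 2.82 to 4.61 and differed by -0.09 to 0.15. No detection calls came with the values, so these 5 could not be separated from background. Detection could likewise not be judged for Lhx5 (mean 5.92), Pcp2 1424944_at (5.86) and Gng13 1447282_at (5.17). The array medians ran from 5.12 to 5.23.

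Rora encodes the nuclear receptor whose mutation gives the staggerer mouse. In daDREAM 4 of its 9 probe sets were higher and 5 were lower. The brightest, 1424034_at, read 10.60, 10.72 and 10.64 in wild type and 10.63, 10.75 and 10.51 in daDREAM. The arrays of the genotypes interleaved, and the difference was -0.02, or 0.984-fold with an interval from 0.814 to 1.19 (limma adjusted p = 0.998). Probe set 1420583_a_at, from a RefSeq transcript, read between 9.56 and 9.76 and differed by 0.04.

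The probe set of Rora with the largest difference was 1436325_at. It read 6.69, 7.0 and 6.73 in wild type and 6.80, 6.16 and 6.0 in daDREAM. daDREAM replicates 2 and 3 were below the wild-type arrays, while daDREAM replicate 1 lay within their range. The means were 6.81 ± 0.17 and 6.32 ± 0.42 (SD, n = 3), which differ by -0.49 (95% interval -0.98 to 0.00196, unadjusted p = 0.0507, limma adjusted p = 0.998). It was the smallest unadjusted p among the 28 probe sets. Without daDREAM replicate 1 the difference was -0.73 with no overlap, as at 32.7% of all probe sets in that fit (limma adjusted p = 0.215). Adjusting for the hybridization controls gave 0.11 (limma adjusted p = 0.768). Its neighbour 1436326_at, built from the same source sequence, differed by -0.13 with daDREAM replicate 3 lowest at 8.51 and daDREAM replicate 1 highest at 9.44. The remaining 5 Rora probe sets differed by -0.12 to 0.19.

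**Figure D2:**
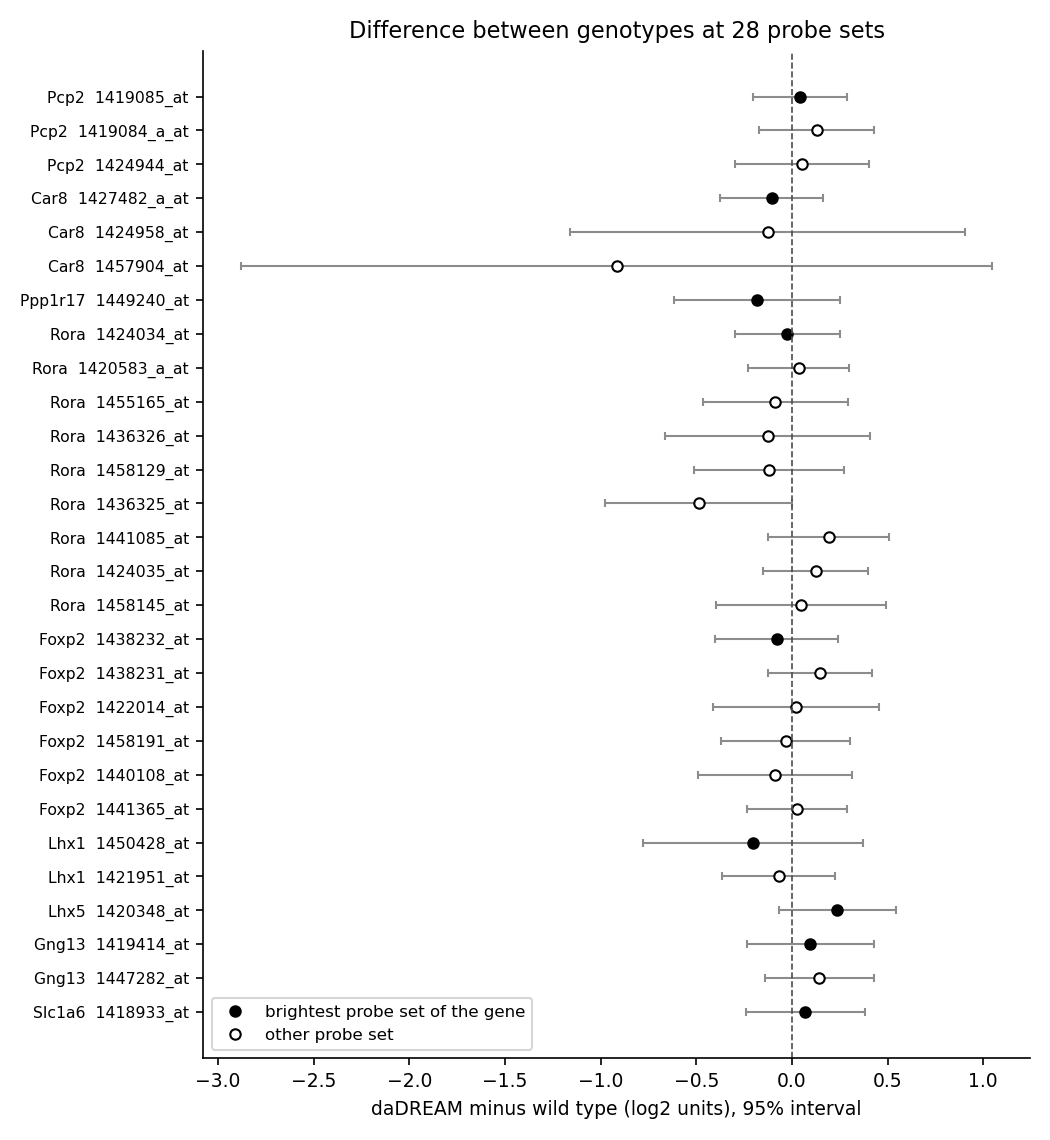
Difference between genotypes in log2 units (horizontal axis, daDREAM minus wild type) with its 95% interval from limma for each of the 28 probe sets (rows, n = 3 per genotype). Filled points are the brightest probe set of a gene and open points the others. Each interval includes 0, and the interval of Car8 1457904_at, from -2.88 to 1.05, is the widest.

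Car8 encodes a carbonic anhydrase-related protein with no enzymatic activity that binds the IP3 receptor of Purkinje cells, and its loss causes ataxia in mice and humans. Its 3 probe sets varied to unlike degrees. The brightest, 1427482_a_at, read 11.73, 11.75 and 11.73 in wild type and 11.64, 11.50 and 11.75 in daDREAM. daDREAM replicate 3 tied with the highest wild-type array, and daDREAM replicates 1 and 2 lay below the wild-type arrays. The difference was -0.11, or 0.929-fold with an interval from 0.770 to 1.12 (limma adjusted p = 0.998). Without daDREAM replicate 3 it was -0.17, with no overlap, as at 14.0% of all probe sets in that fit.

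The other probe sets of Car8 moved between arrays far more than between genotypes. Probe set 1457904_at read 8.22, 8.78 and 6.20 in wild type and 6.82, 5.22 and 8.41 in daDREAM. Wild-type replicates 1 and 2 and daDREAM replicate 3 were high, and the other 3 arrays were low. The range was 3.56 log2 units, or 11.8-fold, and 0.0111% of all probe sets had a wider range. Within wild type alone it spanned 2.58 units and within daDREAM 3.19. Probe set 1424958_at read 9.51, 9.76 and 8.21 in wild type and 8.54, 8.74 and 9.82 in daDREAM. The same 3 arrays were high, over a range of 1.61, which 0.520% of all probe sets exceeded.

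The genotype differences of these probe sets were -0.92 (95% interval -2.88 to 1.05) and -0.13 (-1.16 to 0.91), each with a limma adjusted p of 0.998. When 1 array was left out, the difference of 1457904_at ran from -1.71 without daDREAM replicate 3 to -0.12 without daDREAM replicate 2. For 1424958_at the lowest value was -0.60, with wild-type replicate 3 left out, and the highest was 0.17, with wild-type replicate 2 left out. Neither passed in any of these runs. The high arrays differ from those of Ppp1r17 and Lhx1, since daDREAM replicates 1 and 3 change places. The brightest probe set did not follow this pattern, with wild-type replicate 3 at 11.73 beside 11.73 and 11.75 in the other wild-type arrays.

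**Figure D3:**
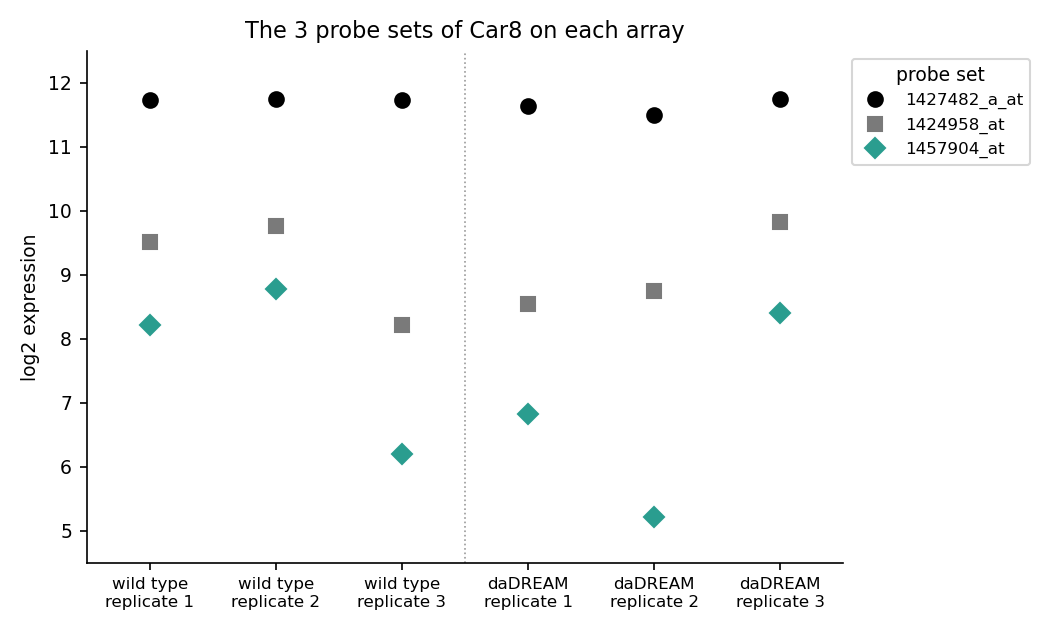
Log2 expression (vertical axis) of the 3 Car8 probe sets on each of the 6 arrays (horizontal axis, 1 point per array and probe set). Probe set 1427482_a_at stays between 11.50 and 11.75, while 1424958_at and 1457904_at are high on wild-type replicates 1 and 2 and daDREAM replicate 3 and low on the other arrays.

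When the probe sets of each gene were averaged first, the differences ran from -0.38 for Car8 to 0.24 for Lhx5, and 0 of the 9 genes had an unadjusted p under 0.05. Pcp2 then differed by 0.08, Rora by -0.05, Foxp2 by -0.00, Lhx1 by -0.14 and Gng13 by 0.12.

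Array by array, wild-type replicate 3 was low for part of the group. It was the lowest array at 3 of the 9 genes, and daDREAM replicate 3 was the lowest at 4 and the highest at 3. Relative to the mean of each gene's brightest probe set, the median deviation of the 9 genes was 0.02, 0.08 and -0.14 in wild-type replicates 1 to 3. It was 0.0283, 0.035 and -0.01 in daDREAM replicates 1 to 3. Over all probe sets the median deviation of wild-type replicate 3 was 0.01. By root mean square difference of mean-centred values over the 6 arrays, among 6925 genes whose mean reached 7, the closest to this median profile were Mlf2 (0.0130 log2 units), Asrgl1 (0.0211), Wbp1l (0.0219), Mllt1 (0.0233) and Grin2c (0.0235). The closest to Lhx1 were Plce1 (0.0327), Nkrf (0.0402) and Dcun1d5 (0.0403). Being picked for likeness to Lhx1, they shared its high arrays, wild-type replicates 1 and 2 and daDREAM replicate 1. A low wild-type replicate 3 was not particular to Purkinje cell genes. Among wild-type arrays it had the lowest mean level of the Bergmann glia and astrocyte markers (9.96, beside 10.13 and 10.18) and of the oligodendrocyte markers (9.35, beside 9.45 and 9.55). It had the highest for choroid plexus (6.12) and for endothelium and blood (6.21).

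Values that follow the arrays were measured beside these genes. The mean of 18 hybridization control probe sets was 8.99, 8.99 and 9.48 in wild type and 9.47, 10.14 and 10.47 in daDREAM. Of the daDREAM arrays only replicate 1 was not above all wild-type arrays, so this measure largely follows genotype. The difference between 3' and 5' control probe sets of Gapdh and beta-actin, a measure of RNA integrity and labelling, was 0.52, 0.54 and 0.45 in wild type and 0.605, 0.295 and 0.355 in daDREAM. The interquartile range of all values was 3.27, 3.38 and 3.10 in wild type and 3.49, 3.15 and 2.97 in daDREAM. Wild-type replicates 1 and 2 and daDREAM replicate 1 were the high arrays of Ppp1r17, Lhx1 and Foxp2. They had the 3 highest 3' minus 5' values and the 3 widest interquartile ranges. The first 2 of these measures were used as covariates. Beyond those fits, the part of the 3 measures in the values was not tested. Leaving out daDREAM replicate 1 alone raised the number of members without overlap from 0 to 10 of 28 and the number with an unadjusted p under 0.05 from 0 to 4. Over all probe sets the same step gave 32.7% and 16.1%, and no adjusted p fell below the threshold.

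Further Purkinje cell genes also gave 0 calls: of 12 measured, 6 were higher and 6 lower, with a median of 0.00. None had an unadjusted p under 0.05, beside 1.42% of all genes at their brightest probe set. Calb1, which encodes the calcium buffer calbindin, read 12.28, 12.27 and 12.25 in wild type and 12.34, 12.11 and 12.28 in daDREAM. Ebf2, a transcription factor of a subset of Purkinje cells, had the smallest p on the higher side at 0.32 (95% interval -0.01 to 0.65). Its means were low, 4.91 in wild type and 5.23 in daDREAM, with no detection call. Dner, a Notch ligand of Purkinje cells, led the lower side at -0.18, and Aldoc, the enzyme known as zebrin II and also made by astrocytes, had the highest mean and differed by 0.01. Plcb3 was the gene of the 12 without overlap, at 6.61 to 6.68 in wild type and 6.79 to 6.94 in daDREAM, a difference of 0.21. Over all genes at their brightest probe set 5.59% had no overlap, so 1 of 12 is near the background. Calb1 and Plcb3 were named after their values were seen. Wild-type replicate 3 was the lowest array for 7 of the 12 genes, with a median deviation of -0.23.

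Of genes reported as ROR-alpha targets in Purkinje cells, 5 were measured, 2 higher and 3 lower, with a median of -0.01. Pcp4, a calmodulin-binding peptide, had the highest mean and differed by -0.01, and Shh, the mitogen that Purkinje cells supply to granule cell precursors, differed by -0.14 (95% interval -0.48 to 0.20). Slc1a6, Pcp2 and Calb1 belong to this list as well, so it is not separate from the genes above. Among relatives in the ROR, Foxp and Lhx families 8 of 14 were higher, with Foxp4 at 0.20, Lhx4 at -0.17 and Foxp1 at -0.08. LIM-homeodomain factors act with the adaptor Ldb1, which read 7.82 ± 0.11 in wild type and 8.25 ± 0.23 in daDREAM (SD, n = 3). That is a difference of 0.43 (95% interval 0.10 to 0.77, unadjusted p = 0.0179, limma adjusted p = 0.998) without overlap. The cofactor list had 6 of 10 genes higher and a median of 0.02, with Rlim, a ubiquitin ligase for these adaptors, at -0.26 and Ssbp3 at -0.01.

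G protein partners of Pcp2 and Gng13 had 13 of 22 genes higher and a median of 0.05. Gng7, another gamma subunit, differed by 0.33 (unadjusted p = 0.0236, limma adjusted p = 0.998), Gng10 by -0.32 and Rgs8, a regulator of G protein signalling abundant in Purkinje cells, by 0.11. Relatives of Slc1a6 had 5 of 6 genes higher and a median of 0.095. The glial glutamate transporter Slc1a3 differed by 0.09, and the neutral amino acid transporters Slc1a4 and Slc1a5 by 0.46 (unadjusted p = 0.0149, limma adjusted p = 0.998) and -0.05. Carbonic anhydrase-related proteins and IP3 receptors had a median of -0.04, with 3 of 4 genes lower: Car10 at -0.05, Itpr3 at 0.15 and Itpr2 at -0.19. The IP3 receptor Itpr1 was on this list but was not matched to a probe set, so the list holds no value for it.

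Partners of Ppp1r17 in cGMP and phosphatase signalling were lower at 11 of 13 genes, at a median of -0.10, beside 48.0% lower and a median of 0.01 over all genes. None passed. The mean level of the list was 9.03, 9.09 and 8.88 in wild type and 9.09, 8.79 and 8.80 in daDREAM. Only daDREAM replicates 2 and 3 were thus below the wild-type arrays, while daDREAM replicate 1 matched the highest of them. Ppp2r1a, the scaffold subunit of protein phosphatase 2A, read 12.24, 12.23 and 12.24 in wild type and 12.14, 12.11 and 12.05 in daDREAM. The arrays did not overlap, and the difference was -0.14 (95% interval -0.38 to 0.11, limma adjusted p = 0.998). Nos1, which makes the nitric oxide that raises cGMP, differed by 0.07. Prkg1, the cGMP-dependent kinase that phosphorylates Ppp1r17, was named after its values were seen. It read 7.68, 7.82 and 7.19 in wild type and 7.72, 6.99 and 7.35 in daDREAM, with the same 3 arrays high as for Ppp1r17.

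The tissue label was checked on markers of other cells. The granule cell genes Cbln1 and Neurod1 stood at 12.19 and 11.25 in wild type and differed by -0.04 and -0.08. Wild-type means of the brainstem and forebrain list ran from 2.97 for Tph2 to 9.02 for Ppp1r1b, with Dbh at 6.70 and Hoxb3 at 5.43, so its probe sets were not uniformly low. These genes were named after their values were seen. List medians were -0.04 for granule cells (6 of 9 lower), -0.07 for molecular layer interneurons (6 of 8 lower), -0.16 for Golgi and unipolar brush cells (5 of 7 lower) and -0.07 for cerebellar nuclei (3 of 4 lower). They were -0.06 for Bergmann glia and astrocytes (5 of 8 lower), -0.03 for oligodendrocytes (5 of 7 lower), -0.14 for endothelium and blood (4 of 6 lower) and -0.01 for brainstem and forebrain (4 of 7 lower). Choroid plexus markers were higher at 8 of 8 genes with a median of 0.435, and microglia markers at 7 of 7 with a median of 0.24. The mean level of the choroid plexus list ran from 5.895 to 6.12 in wild type and from 6.39 to 6.545 in daDREAM, and that of microglia from 6.02 to 6.14 and from 6.24 to 6.31. Their part in the Purkinje cell values was not tested. Over the lists 152 genes were measured, of which 0 passed after adjustment and 11 (7.24%) had an unadjusted p under 0.05, beside 1.42% of all genes. Of these 11 genes 9 were higher in daDREAM, and 5 were choroid plexus markers.

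**Figure D4:**
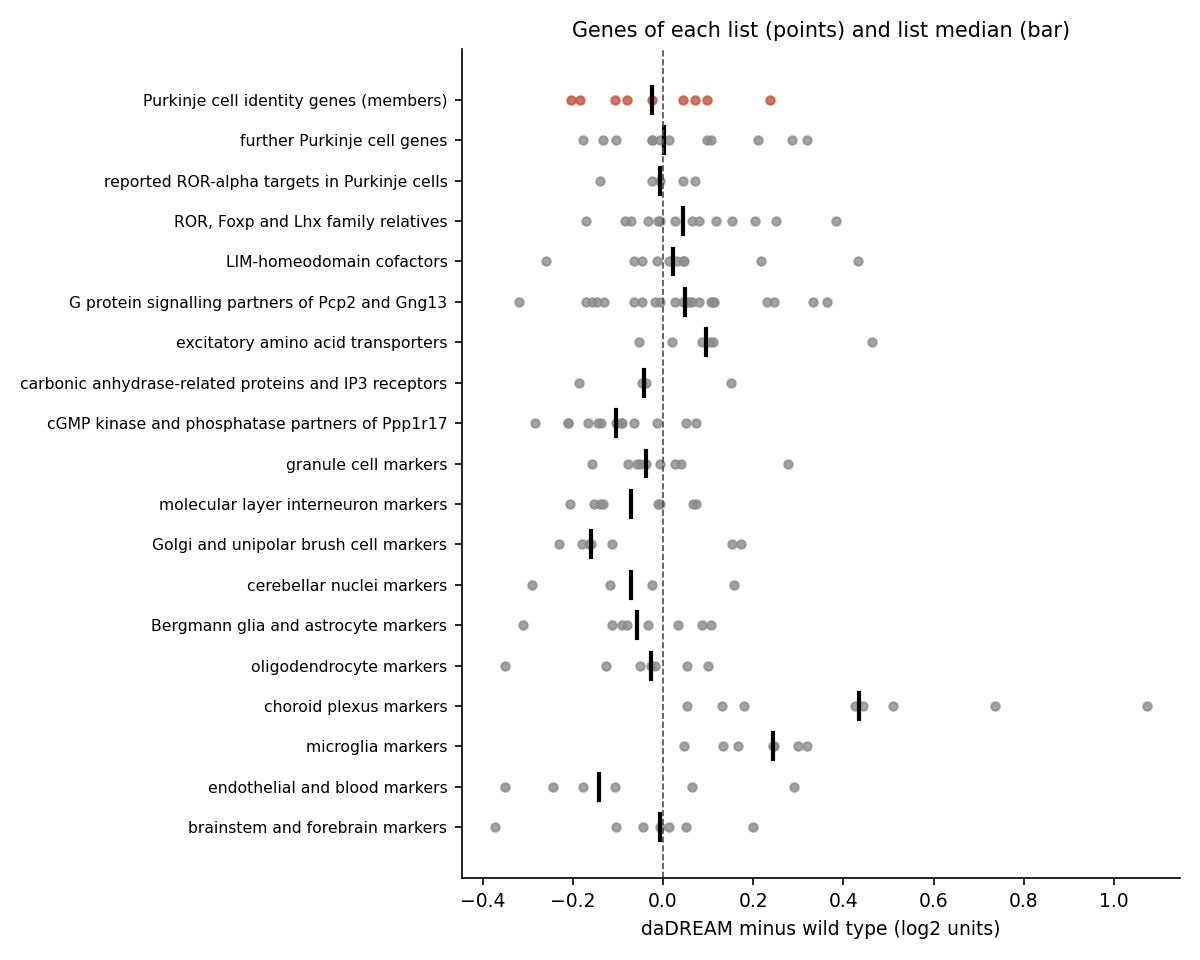
Difference between genotypes in log2 units (horizontal axis, daDREAM minus wild type) for each gene of each list at its brightest probe set (points) with the list median (bar). The 9 Purkinje cell identity genes, in red, lie between -0.20 and 0.24 around a median of -0.02, and the choroid plexus list has a median of 0.435.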

How the data were processed

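Total RNA from frozen cerebellum was labelled and hybridised to 6 arrays. Per the submitters' processing notes the authors made the deposited log2 values with RMA in the affy package, whose version is not given in the sources used here. RMA normalizes the arrays to one another, so a shift common to most transcripts cannot be seen. The deposited medians ran from 5.12 to 5.23. The arrays still differed in spread, with interquartile ranges from 2.97 in daDREAM replicate 3 to 3.49 in daDREAM replicate 1. The 64 control probe sets were left out. Differences, daDREAM minus wild type, came from a linear model with moderated variances (limma 3.58.1, run in R 4.3.3, 2-sided) over 45037 probe sets, with Benjamini-Hochberg adjustment over all of them at 0.05 and 95% intervals. The procedure was tested on simulated data whose shifts were larger than the difference of any member, so it does not cover smaller differences. Members, gene lists and tests were chosen with earlier results of these data known. A list is described by counts and its median at each gene's brightest probe set, the one with the highest mean.

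The genes named are each member, the gene with the smallest p in each direction and the highest mean of each Purkinje-related list, and the closest profiles by root mean square difference. Others are marked as named after their values were seen, or serve as tissue checks. Alternatives were the replicate number as a block, renewed quantile normalization, median centring, another variance prior, a minimum mean of 5, array-level covariates, each array left out and the mean of a gene's probe sets. Precision is limited by having 3 arrays per genotype, and a member's difference had a standard error of 0.14 log2 units at the median.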

Additional observations from a re-analysis of the deposited data

How the results depend on the processing

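No member passed the adjusted threshold in any setting tried, and neither did a gene of the companion lists. The signs of the differences were less stable. The hybridization controls largely followed genotype, so the fit with them cannot cleanly separate the effect of genotype from theirs. After adjusting for the hybridization controls, 13 of 28 member differences changed sign, Ppp1r17 1449240_at to 0.37, Rora 1424034_at to 0.036, Rora 1455165_at to 0.34, Rora 1436326_at to 0.33, Rora 1436325_at to 0.11, Rora 1441085_at to -0.12, Rora 1424035_at to -0.014, Foxp2 1438232_at to 0.24, Foxp2 1422014_at to -0.46, Foxp2 1440108_at to 0.29, Foxp2 1441365_at to -0.059, Lhx1 1450428_at to 0.59 and Gng13 1419414_at to -0.16. With the 3' minus 5' difference as a covariate, 6 changed sign, Pcp2 1424944_at to -0.0048, Rora 1455165_at to 0.054, Foxp2 1438232_at to 0.011, Foxp2 1422014_at to -0.065, Foxp2 1440108_at to 0.070 and Lhx1 1450428_at to 0.056. After median centring 1 changed sign, Foxp2 1422014_at to -0.0067. After renewed quantile normalization 1 changed sign, Foxp2 1422014_at to -0.0039. When 1 array was left out, 14 of 28 crossed 0, with these ranges: Pcp2 1424944_at from -0.048 to 0.18, Car8 1424958_at from -0.60 to 0.17, Rora 1424034_at from -0.083 to 0.037, Rora 1420583_a_at from -0.012 to 0.073 and Rora 1455165_at from -0.26 to 0.037, then Rora 1436326_at from -0.31 to 0.15, Rora 1458129_at from -0.25 to 0.063, Rora 1458145_at from -0.078 to 0.23, Foxp2 1422014_at from -0.17 to 0.14 and Foxp2 1458191_at from -0.14 to 0.053, then Foxp2 1440108_at from -0.26 to 0.04, Foxp2 1441365_at from -0.027 to 0.063, Lhx1 1421951_at from -0.13 to 0.0067 and Slc1a6 1418933_at from -0.043 to 0.16. The number of members without overlap, 0 as measured, was 1 of 28 after median centring (Car8 1427482_a_at), beside 6.22% of all probe sets. It was 1 of 28 after renewed quantile normalization (Lhx5), beside 8.29% of all probe sets. The number ran from 0 to 10 when 1 array was left out, with 10 without daDREAM replicate 1. The share over all probe sets then ran from 9.91% to 32.7%, the latter without daDREAM replicate 1. In 7 of the 28 members the sign held in each setting: Gng13 1447282_at, Pcp2 1419084_a_at and 1419085_at, Car8 1457904_at and 1427482_a_at, Lhx5 and Foxp2 1438231_at. The replicate number did not pair the arrays (correlations of deviations 0.12, -0.28 and 0.32 for numbers 1 to 3). With it as a block, 0 members passed and 1 had an unadjusted p under 0.05, Rora 1436325_at (unadjusted p = 0.0407, limma adjusted p = 0.996). The share over all probe sets in that fit was 2.43%. Such members numbered 4 with the hybridization controls as a covariate, beside 23.2% of all probe sets. There was 1 with the 3' minus 5' covariate (3.62% of all) and 1 after renewed quantile normalization (3.02% of all). The cause of these changes was not tested.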

Other observations

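Probe sets whose values over the 6 arrays lay closest to those of Car8 1457904_at were searched for after its values had been seen, among 34917 probe sets of other genes. The closest was Fam126b 1456257_at, at a root mean square difference of 0.437 log2 units. It read 9.44, 9.43 and 6.50 in wild-type replicates 1 to 3 and 6.94, 6.26 and 8.51 in daDREAM replicates 1 to 3. Soga3 1429628_at read 8.35, 8.34 and 5.78 in wild type and 6.21, 6.05 and 8.20 in daDREAM, and Mtmr7 1447831_s_at read 5.21, 5.35 and 2.97 and 3.09, 3.14 and 5.25. Being picked for likeness to Car8 1457904_at, these genes were high in wild-type replicates 1 and 2 and daDREAM replicate 3 and low in the others. Their ranges were 3.18, 2.57 and 2.38 log2 units.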
